A study of Homo sapiens with 15 samples.

Results

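The genes described here were sought in 13 families of developmental transcription factors, proteins that bind DNA and set which genes a cell lineage uses. They were taken by name from the 4 deposited tables: every row whose gene name begins with HOX, FOX, LHX, MEIS, PITX, IRX or HEY, or with TBX, SOX, PAX, GATA or HES and a digit, and the genes of the family of SIX4 and SIX5. FOXM1, a regulator of mitotic genes, and antisense genes were left out. The rule took 43 genes of the 4872 present in the 4 tables together. Of the 43, the rule takes FOXRED1 and FOXRED2 by their first letters only, since they encode oxidoreductases, and MEIS3P1 and MEIS3P2 are pseudogenes, so 39 are protein-coding genes of the families.

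The libraries were made from WI-38, a fibroblast strain started from human fetal lung that stops dividing after long culture, with 3 RNA-seq libraries in each of 5 groups and 15 in all. PD45 cells treated with GW8510, a kinase inhibitor known to act on cyclin-dependent kinases, also received the transfection reagent lipo3000 with an agent labelled NC, and their labels name no DMSO. PD45 cells with siSRC2 and PD45 cells with siSRC4 received DMSO and lipo3000 with siSRC, an siRNA against the tyrosine kinase gene SRC. PD30 cells received DMSO and lipo3000 without NC, and the PD45 control received DMSO and lipo3000 with NC. The labels give PD30 and PD45 as generation 30 and 45 and call the cells used for GW8510 and SRC knockdown senescent. GW8510 and the absence of DMSO therefore cannot be told apart, nor can passage and the absence of NC at PD30. The labels used here give no dose or duration, and nothing states that replicates were grown separately. Each p-value therefore reflects only library-to-library spread, which may be technical.

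HOX genes lie in 4 clusters, HOXA to HOXD, and in the embryo are switched on in the order in which they lie, which gives cells their position along the body axis. Fibroblasts in culture are known to keep a HOX pattern of their site of origin. SOX, FOX, TBX, SIX4, SIX5, PITX, PAX, IRX and GATA proteins specify mesenchymal, skeletal, muscle, lung and other lineages, and HES and HEY proteins are repressors, many of which act downstream of the Notch receptor.

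The promoter sequences of members that carry the results are shown first, as the 250 bases before the RefSeq gene start in build GRCh38.p14, written 5′ to 3′ along the gene. The RefSeq promoter table held 25 of the 43 members. SOX12 and SOX13 were listed in 3 comparisons, PITX1 in 2, HOXA3 and HOXA4 are neighbours listed together at PD30, and HES4 and HES6 were listed together with GW8510. The window of SOX12 is chr20:325302-325551 on the plus strand, that of SOX13 chr1:204072865-204073114 on the plus strand and that of PITX1 chr5:135034229-135034478 on the minus strand. The window of HOXA3 is chr7:27152584-27152833 on the minus strand and that of HOXA4 chr7:27130758-27131007 on the minus strand. On this strand the HOXA3 window lies upstream of that of HOXA4, and the GENCODE 29 gene model of HOXA3 overlaps HOXA4, HOXA5 and HOXA6. The window thus belongs to 1 RefSeq start of HOXA3, and other starts were not examined. The window of HES4 is chr1:1000098-1000347 on the minus strand and that of HES6 chr2:238240039-238240288 on the minus strand. Capitals mark the CCAAT box (CCAAT, or ATTGG on the other strand) and the GC box (GGGCGG, or CCGCCC on the other strand), and each run of capitals is 1 match. Bases just after the window were found in a GENCODE 29 transcript of the gene for 6 of the 7 genes but not for SOX12, whose GENCODE 29 transcripts start further downstream, so its window rests on the RefSeq start.
SOX12: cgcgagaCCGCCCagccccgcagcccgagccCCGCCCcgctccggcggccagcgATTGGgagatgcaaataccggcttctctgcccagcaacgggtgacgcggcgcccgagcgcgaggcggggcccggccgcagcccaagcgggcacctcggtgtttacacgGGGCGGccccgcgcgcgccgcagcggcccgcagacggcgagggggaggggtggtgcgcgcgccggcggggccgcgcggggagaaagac
SOX13: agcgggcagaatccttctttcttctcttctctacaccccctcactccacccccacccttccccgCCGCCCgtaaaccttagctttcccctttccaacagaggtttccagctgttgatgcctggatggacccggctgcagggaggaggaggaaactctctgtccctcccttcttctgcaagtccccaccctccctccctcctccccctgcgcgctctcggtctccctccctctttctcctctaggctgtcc
PITX1: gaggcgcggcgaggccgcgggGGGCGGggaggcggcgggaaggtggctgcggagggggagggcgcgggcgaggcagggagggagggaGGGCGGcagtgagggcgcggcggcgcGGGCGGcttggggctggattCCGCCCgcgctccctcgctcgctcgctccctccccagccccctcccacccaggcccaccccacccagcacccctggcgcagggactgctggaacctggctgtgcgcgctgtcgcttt
HOXA3: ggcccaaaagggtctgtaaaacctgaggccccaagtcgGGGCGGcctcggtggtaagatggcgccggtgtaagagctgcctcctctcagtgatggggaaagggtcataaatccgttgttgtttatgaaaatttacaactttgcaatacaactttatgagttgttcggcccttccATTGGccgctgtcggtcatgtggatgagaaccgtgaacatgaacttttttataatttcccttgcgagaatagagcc
HOXA4: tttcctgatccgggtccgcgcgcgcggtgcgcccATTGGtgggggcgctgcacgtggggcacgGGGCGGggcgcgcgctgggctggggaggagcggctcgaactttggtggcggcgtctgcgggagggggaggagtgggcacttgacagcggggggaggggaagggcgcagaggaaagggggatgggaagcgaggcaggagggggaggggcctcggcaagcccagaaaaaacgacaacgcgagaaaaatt
HES4: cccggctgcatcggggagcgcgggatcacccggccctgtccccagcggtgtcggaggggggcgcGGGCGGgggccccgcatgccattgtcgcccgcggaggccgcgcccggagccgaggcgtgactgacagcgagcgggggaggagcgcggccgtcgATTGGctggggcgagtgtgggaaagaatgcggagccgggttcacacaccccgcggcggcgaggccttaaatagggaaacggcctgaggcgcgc
HES6: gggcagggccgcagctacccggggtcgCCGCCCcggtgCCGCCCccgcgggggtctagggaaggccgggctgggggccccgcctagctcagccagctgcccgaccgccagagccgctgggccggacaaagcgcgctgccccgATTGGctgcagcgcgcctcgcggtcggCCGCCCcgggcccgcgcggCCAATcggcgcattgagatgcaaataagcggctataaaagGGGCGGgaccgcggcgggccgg
SOX12 and HES6 held both motifs, with 1 CCAAT and 3 GC boxes for SOX12 and 2 and 4 for HES6. HOXA3, HOXA4 and HES4 held 1 of each, and PITX1 held 4 GC boxes and SOX13 1, both with no CCAAT box in this window. A CCAAT box was in 13 of the 25 members' promoters (52%), against 33.0% of all 27305 promoters of the table. The GC box was in 18 of 25 (72%), against 42.3% of all promoters, and median GC content was 65.6% for the members and 58% for all promoters. The forkhead core TGTTTAC, in 2.98% of all promoters, was in that of SOX12, and the homeodomain core TAATTA, in 4.49% of all, was in that of FOXO4. Other motifs stood in few of the 25 members' promoters. The TATA box TATAAA was in 2 (8%, against 11.1% of all) and the SOX core ACAAAG in 2 (8%, against 13.7%). The RBPJ core TGGGAA was in 4 (16%, against 21.1%). The cell cycle homology region TTTGAA was in 1 (4%, against 13.6%) and TAATTA in 1 (4%, against 4.49%). Since 1 promoter of 25 makes 4%, these shares are not read as differing from those of all promoters. The E-box CACGTG was in 3 of the members' promoters (12%) and 6.49% of all, and TGTTTAC in 1 of the members' (4%). Each motif was searched on both strands. Such a match describes the letters of the window and is not a binding site.

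Each deposited table holds only genes that the authors called, at an adjusted p under 0.05 and a fold of at least 1.5, so absence from a table does not show that a gene stayed the same. Membership thus used the authors' contrast, and the counts below are a description. The tables list 26 members for PD30, 15 for GW8510, 9 for siSRC4 and 1 for siSRC2. Of the 173 protein-coding genes of these families in RefSeq, 23 were listed at PD30 (13.3%), where the authors listed 15.3% of the genes they tested. With GW8510, 14 of the 173 were listed (8.09%), against 11.8% of genes tested. For siSRC4, 9 were listed (5.20%), against 8.77%, and for siSRC2, 1 was listed (0.578%), against 2.64%. How many of the 173 were tested is not known, so these shares are set side by side only. SRC itself was lower with both siRNAs, at 11.3 ± 0.580 with siSRC2, 10.8 ± 1.16 with siSRC4 and 19.8 ± 0.766 in the control, with every library of both knockdown groups below every control library.

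Directions differed between the comparisons. At PD30, 19 of 26 members were listed as higher and 7 as lower, where 53.8% of all listed genes were higher and 46.2% lower. With GW8510, 7 of 15 were higher and 8 lower, against 38.8% and 61.2% of all listed genes. With siSRC4, 7 of 9 were higher and 2 lower, against 44.6% and 55.4%. The 1 member listed for siSRC2 was higher, as were 52.3% of all genes listed there. The median log2 ratio of mean signals was 0.86 for the members and 0.59 for all listed genes at PD30. It was -0.57 and -0.72 with GW8510, and 0.66 and -0.54 with siSRC4. The PD30 libraries did not overlap those of the control in 26 of 26 members (93.6% of all listed genes), the GW8510 libraries in 11 of 15 (90.6%), the siSRC4 libraries in 6 of 9 (88.8%) and the siSRC2 libraries in 1 of 1 (90.6%).

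**Figure D1:**
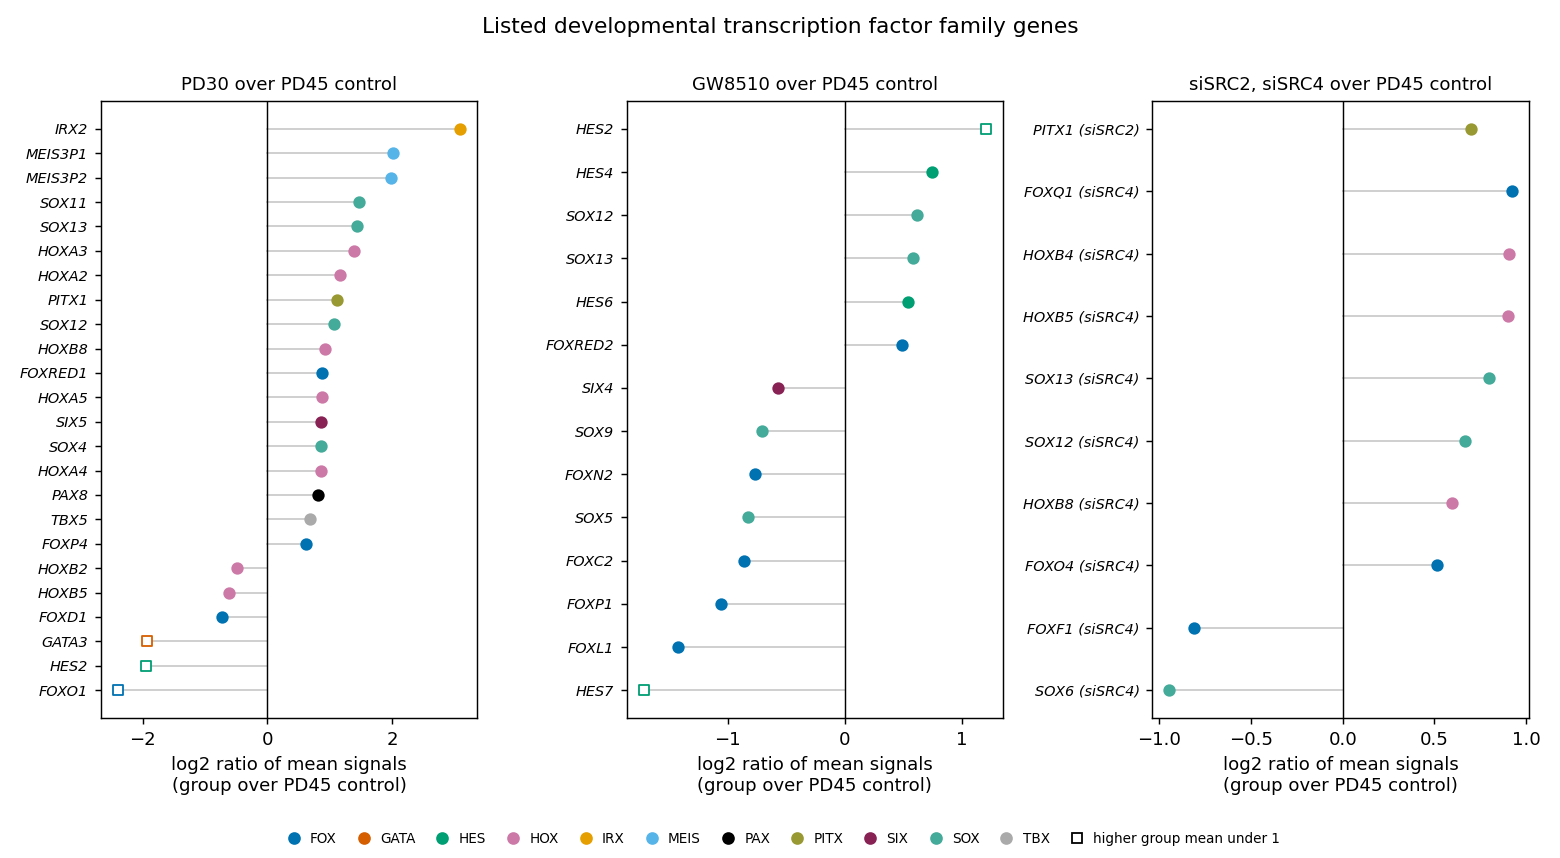
Each point is 1 listed gene that is reported here. The horizontal axis gives the log2 ratio of the mean signal of a group (3 libraries) over that of the PD45 control (3 libraries), colours give the family, and open squares mark genes whose higher group mean was under 1. At PD30 the points lie mostly to the right of 0, with IRX2 the farthest, and with GW8510 the FOX transcription factors lie to the left.

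Values below are the deposited normalized expression signal, on a scale that the header leaves unnamed (TPM and FPKM are both possible), so levels of different genes are not compared, and read depth is unknown. Means are given ± SD over the 3 libraries of a group, and a fold is the quotient of 2 group means except where a value is credited to the authors' deposited table. The signals were re-tested with limma on log2(signal + 1) over all listed genes of a table with a mean signal of at least 1, with p-values adjusted by the Benjamini-Hochberg method. It was run on genes the authors had already selected, so it is no independent evidence: 21 of 21 members passed it in the authors' direction at PD30 (97.3% of all listed genes entered), 13 of 13 with GW8510 (95.4%), 9 of 9 with siSRC4 (93.7%) and 1 of 1 with siSRC2 (95.5%). These shares are near the background, since nearly all listed genes passed. The minimum kept out 5 of the 26 members at PD30 and 2 of the 15 with GW8510, which are given by their values. In RNA from whole cultures, fewer cells of a type and less RNA per cell cannot be told apart.

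HOX genes were listed from the HOXA and HOXB clusters, and none of the 9 HOXC and 9 HOXD genes was listed. At PD30, 7 of 39 HOX genes were listed (17.9%, against 15.3% of genes tested), and with siSRC4 3 of 39 (7.69%, against 8.77%). At PD30 the neighbouring genes HOXA2, HOXA3, HOXA4 and HOXA5 were all higher, by 1.81-fold to 2.60-fold, while in the HOXB cluster HOXB2 and HOXB5 were lower and HOXB8 was higher. With siSRC4, HOXB4, HOXB5 and HOXB8 were all higher, by 1.51-fold to 1.88-fold. HOXB5 thus stood lower at PD30 and higher with siSRC4 than in the same control libraries.

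HOXA5, which in the mouse is needed for normal lung development, had signals of 14.3, 15.2 and 15.7 at PD30, against 8.01, 9.10 and 7.71 in the PD45 control. The groups lay clearly apart, with means of 15.1 ± 0.698 at PD30 and 8.27 ± 0.731 in the control, a 1.82-fold higher level (limma, adjusted p = 6.61e-05). HOXA4 stood at 3.12, 3.24 and 3.13 at PD30, against 1.66, 1.89 and 1.70 in the PD45 control. Its PD30 libraries were close to each other and all above the control, 1.81-fold higher (limma, adjusted p = 0.000759). HOXA3 had 8.11, 4.18 and 6.06 at PD30, against 2.37, 2.31 and 2.38 in the PD45 control. The 3 control libraries nearly coincided while those of PD30 spread widely, all above them, around a mean 2.60-fold higher (limma, adjusted p = 0.000554). For HOXA2, a gene of hindbrain and pharyngeal arch patterning, the signals were low, at 1.28, 1.46 and 2.43 at PD30, against 1.04, 0.68 and 0.59 in the PD45 control, and still did not overlap (2.24-fold higher; limma, adjusted p = 0.00722). The gene models overlap here: in GENCODE 29 that of HOXA3 overlaps HOXA4 and HOXA5 on the same strand. The antisense gene HOXA-AS2, whose model overlaps HOXA3 and HOXA4, was also listed as higher at PD30 (4.64 ± 0.930 at PD30 and 3.23 ± 1.38 in the control). Its PD30 and control libraries overlapped in signal. The counting is not stated to use strand, so reads from a gene and its antisense partner cannot be told apart, and the split of reads among HOXA3, HOXA4 and HOXA5 is uncertain. Of the 43 members, 26 overlap a gene on the opposite strand, so this holds for many of the values below.

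In the HOXB cluster, HOXB5 had 29.1, 25.6 and 33.9 at PD30, against 48.3, 47.7 and 39.2 in the PD45 control, 1.53-fold lower at PD30 (limma, adjusted p = 0.00100). HOXB2 was 1.41-fold lower, with 31.5, 31.7 and 36.8 at PD30, against 52.8, 44.3 and 43.7 in the PD45 control (limma, adjusted p = 0.00132). Both genes showed all PD30 libraries under the lowest control library. HOXB8 moved the other way, with 6.16, 7.69 and 6.65 at PD30, against 4.39, 3.34 and 3.08 in the PD45 control, 1.90-fold higher (limma, adjusted p = 0.000685). The antisense gene HOXB-AS3, which overlaps HOXB4 and HOXB5, was listed as lower at PD30, at 56.02 ± 0.437 at PD30 and 109 ± 12.3 in the control, and its part in the HOXB5 signal was not tested.

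With siSRC4, HOXB5 stood at 83.8, 84.2 and 85.1, within a very narrow range and far above the 48.3, 47.7 and 39.2 of the control, a 1.87-fold higher level (limma, adjusted p = 0.000351). HOXB4, a gene also known for expanding blood stem cells when overexpressed, had 9.56, 9.42 and 8.92 with siSRC4, against 5.55, 5.18 and 4.13 in the PD45 control. It was 1.88-fold higher, without overlap (limma, adjusted p = 0.00112). HOXB8 had 6.30, 4.38 and 5.67 with siSRC4, against 4.39, 3.34 and 3.08 in the PD45 control. These groups overlapped, since the lowest siSRC4 library lay just under the highest control library (1.51-fold; limma, adjusted p = 0.0217). HOXB-AS3 was not among the genes listed for siSRC4. The antisense gene HOXB-AS1, which overlaps HOXB2, was listed as higher with GW8510, at 5.94 ± 0.635 with GW8510 and 2.50 ± 0.525 in the control, and HOXB2 itself was not listed there.

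**Figure D2:**
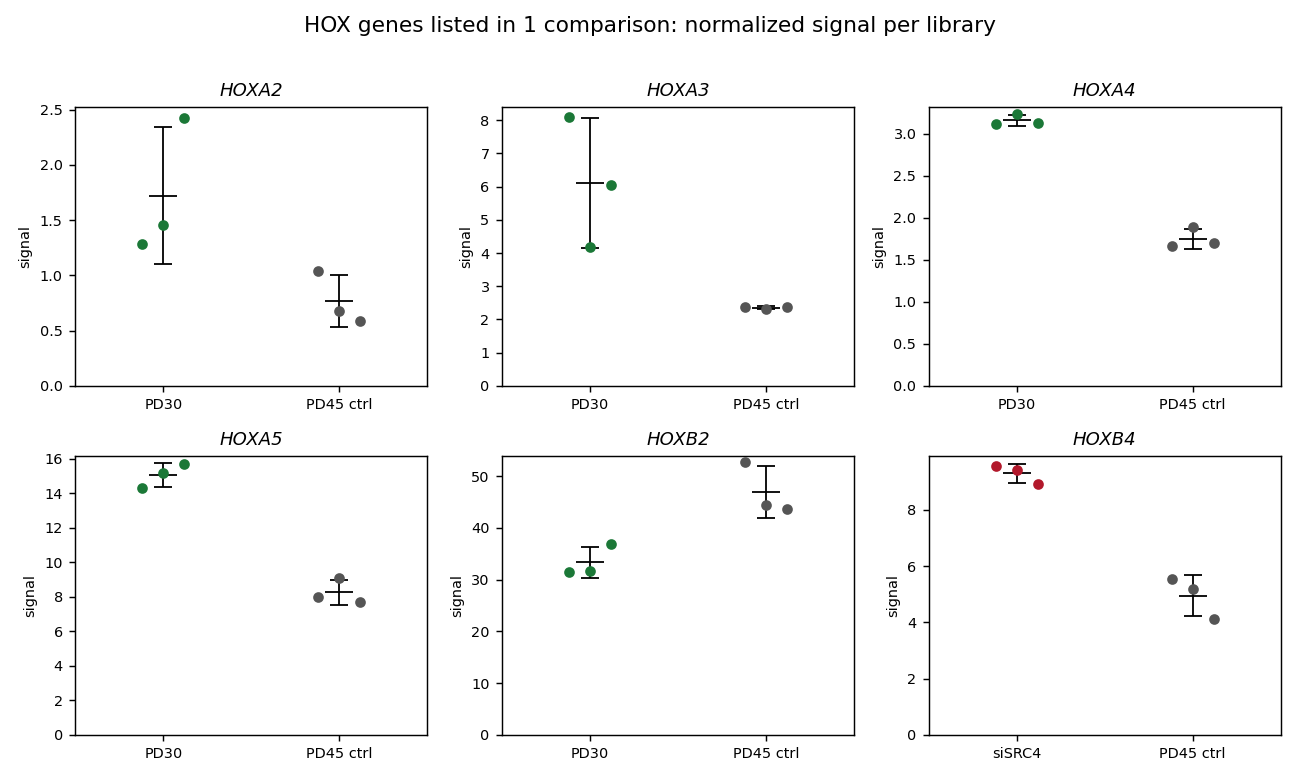
Deposited signal (vertical axis, from 0) of 6 HOX genes listed in 1 comparison, with 1 point per library, the mean as a horizontal line and the SD as whiskers, beside the 3 libraries of the PD45 control. HOXA2 to HOXA5 lie higher at PD30 than in the control, HOXB4 lies higher with siSRC4, and HOXB2 lies lower at PD30.

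Genes that act on HOX genes were read from a list of 38 Polycomb and trithorax regulators. No protein-coding MEIS gene, a family of HOX partners, was listed. MEIS3P1 and MEIS3P2, pseudogenes of MEIS3, were 4.03-fold and 3.93-fold higher at PD30. MEIS3P1 had 2.71, 2.94 and 2.97 at PD30, against 0.88, 0.53 and 0.73 in the PD45 control. MEIS3P2 was faint, with 1.23, 1.24 and 0.75 at PD30, against 0.35, 0.27 and 0.2 in the PD45 control. Its mean over both groups was below the minimum of the re-test. Reads of both pseudogenes may be shared with MEIS3 and with each other. Of the 38 regulators, 4 were listed at PD30, all as higher, where 15.3% of genes tested were listed. CBX2, of Polycomb repressive complex 1, overlapped the control (1.35 ± 0.513 at PD30 and 0.91 ± 0.598 in the control) and did not pass the re-test (limma, adjusted p = 0.219). The others include EZH2, the catalytic subunit of Polycomb repressive complex 2 (5.58 ± 0.597 at PD30 and 1.68 ± 0.150 in the control), and PHF19, an accessory subunit (37.6 ± 2.22 at PD30 and 15.3 ± 1.68 in the control). With GW8510 the 1 listed was BMI1 (7.81 ± 2.39 with GW8510 and 11.02 ± 0.387 in the control), and none was listed with either siRNA. In a list of 19 retinoic acid pathway genes, which include known regulators of HOX transcription, 4 were higher and 1 lower at PD30. The share of all genes tested that were listed there was 15.3%. CRABP2, a carrier of retinoic acid, stood at 76.2 ± 3.61 at PD30 and 26.4 ± 1.13 in the control, and with siSRC4 it was also higher (44.1 ± 3.70 with siSRC4 and 26.4 ± 1.13 in the control). CYP26B1, which degrades retinoic acid, was lower at PD30 (0.277 ± 0.0289 at PD30 and 1.70 ± 0.0929 in the control) and higher with GW8510 (3.57 ± 0.745 with GW8510 and 1.70 ± 0.0929 in the control).

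SOX genes were listed in 3 comparisons, 7 of 19 family genes in all. They were 4 of 19 with GW8510 (21.1%, against 11.8% of genes tested), 3 with siSRC4 (15.8%, against 8.77%) and 4 at PD30 (21.1%, against 15.3%). SOX12 and SOX13 were higher with GW8510, with siSRC4 and at PD30, SOX4 and SOX11 were higher at PD30, and SOX5, SOX6 and SOX9 were lower, SOX5 and SOX9 with GW8510 and SOX6 with siSRC4. SOX4, SOX11 and SOX12 form the SoxC group, activators of progenitor cells, and SOX5, SOX6 and SOX13 the SoxD group, which lack an activation domain of their own. SOX9 is the master regulator of cartilage and acts there with SOX5 and SOX6.

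SOX12 had 13.2, 14.2 and 16.9 with GW8510, 14.1, 14.9 and 16.7 with siSRC4, 19.1, 20 and 21.3 at PD30 and 9.93, 9.82 and 9.07 in the PD45 control. Every library of the other 3 groups lay above every control library, and the levels were 1.53, 1.59 and 2.10 times that of the control. The authors' deposited folds were 1.67, 1.55 and 2.11, in the same order of groups. Over all listed genes, the authors' log2 fold change exceeded the log2 ratio of mean signals by a median of 0.12 with GW8510. That median was 0.016 at PD30 and -0.038 with siSRC4, so GW8510 folds from signals ran lower against the authors' values than those of these groups. SOX13 had 1.79, 1.37 and 2.05 with GW8510, 1.99, 1.95 and 2.13 with siSRC4, 3.63, 2.70 and 3.10 at PD30 and 1.41, 1.06 and 1.02 in the control. The GW8510 and control libraries of SOX13 overlapped, and the other groups did not overlap the control. The 3 comparisons share the control libraries, so they are not independent of each other.

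The listing set each group against the control and not the 2 groups against each other, so for genes listed in the same direction in both tables the direct difference between groups was tested, with limma over all genes listed in both tables. SOX12 was lower with GW8510 than at PD30, by a log2 difference of -0.43 (95% interval -0.69 to -0.17) on the log2(signal + 1) scale (adjusted p = 0.00840), and lower with siSRC4 than at PD30, by -0.38 (95% interval -0.63 to -0.14) (limma, adjusted p = 0.0100). For SOX13 the differences were -0.60 (95% interval -0.91 to -0.29) for GW8510 minus PD30 (limma, adjusted p = 0.00288) and -0.45 (95% interval -0.76 to -0.14) for siSRC4 minus PD30 (adjusted p = 0.0146, limma). Such a difference was found for 66.4% of all genes listed for both GW8510 and PD30 and for 60.4% of those listed for both siSRC4 and PD30, and for 52% and 34.5% of the genes listed in the same direction in both tables. Either siSRC4 difference could be lost by leaving out 1 library. That of SOX13 was lost without siSRC4 replicate 2 (limma, adjusted p = 0.0525) or PD30 replicate 1 (0.0579), and that of SOX12 without PD30 replicate 3 (0.0522). The direct differences were not rescaled for the GW8510 offset given above. Between siSRC4 and GW8510 no difference was called. It was 0.05 (95% interval -0.28 to 0.37) for SOX12 and 0.15 (95% interval -0.19 to 0.50) for SOX13, and 34.7% of all genes in both tables differed, or 6.86% of those listed in the same direction.

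SOX4 had 17.7, 19.2 and 16.5 at PD30, against 11.2, 9.02 and 9.30 in the PD45 control, and SOX11, at low level, 1.73, 1.71 and 1.52 at PD30, against 0.64, 0.65 and 0.51 in the PD45 control. The groups lay apart in both genes, 1.81-fold and 2.76-fold higher (limma, adjusted p = 0.000104 and 0.000163). SOX9 had 14.2, 14.4 and 15.1 with GW8510, against 26.0, 25.6 and 19.8 in the PD45 control. The GW8510 libraries lay within a narrow range below the control, 1.63-fold lower (limma, adjusted p = 0.000728). SOX5 had 1.62, 1.61 and 0.55 with GW8510, against 2.30, 1.82 and 2.59 in the PD45 control, and the third GW8510 library was far below the other 2. Without it the call ended (limma, adjusted p = 0.0987, against 0.0250 with all libraries). SOX6 had 1.29, 1.09 and 2.35 with siSRC4, against 4.02, 2.34 and 2.75 in the PD45 control. The highest siSRC4 library lay just above the lowest control library (1.93-fold lower; limma, adjusted p = 0.0165).

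**Figure D3:**
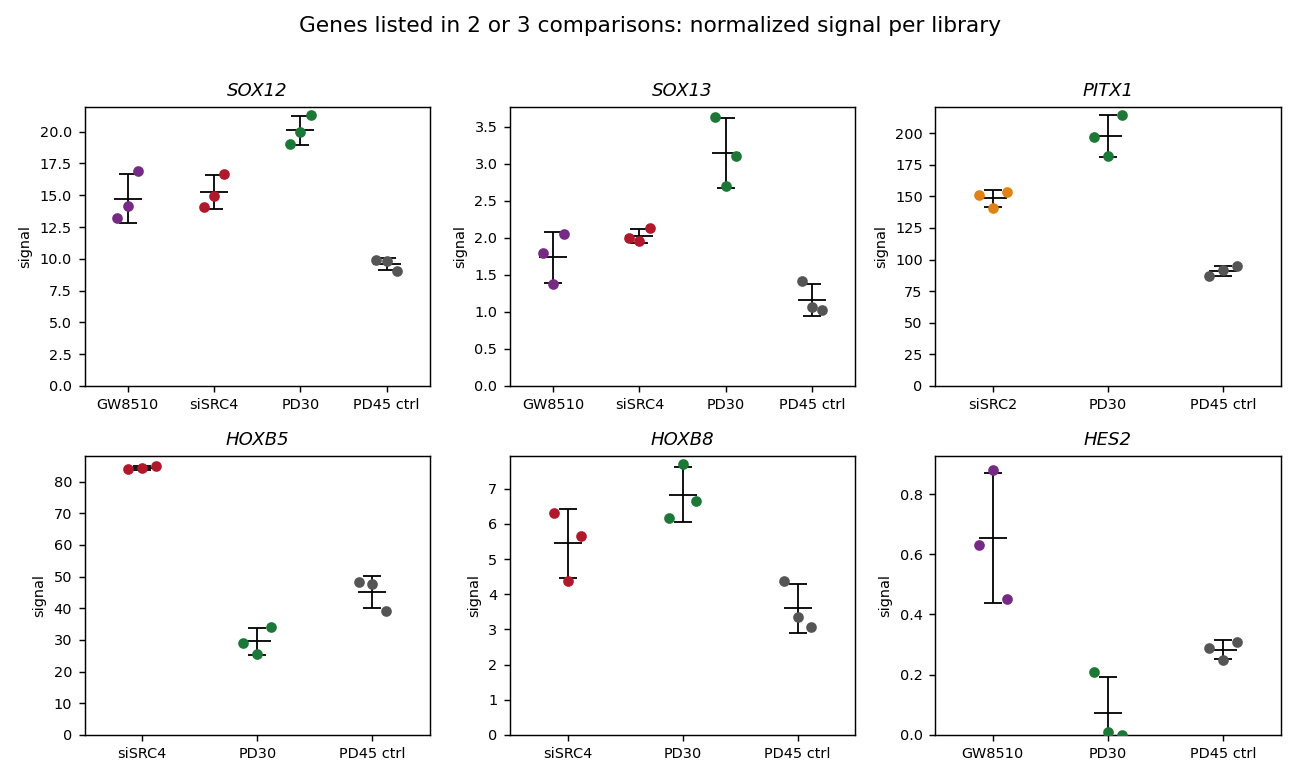
Deposited signal (vertical axis, from 0) of the 6 members listed in 2 or 3 comparisons, with 1 point per library, the mean as a horizontal line and the SD as whiskers. SOX12 and SOX13 lie highest at PD30 and lowest in the control, PITX1 with siSRC2 lies between PD30 and the control, and HOXB5 lies above the control with siSRC4 and below it at PD30.

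PITX1, a homeodomain factor of hindlimb and pituitary development, was the 1 member listed with siSRC2. Its signals were 151, 141 and 153 with siSRC2, 197, 182 and 214 at PD30 and 87.2, 91.4 and 95.1 in the PD45 control. No library of one group overlapped another group, and the levels were 1.63 and 2.17 times that of the control (limma, adjusted p = 0.000109 and 2.11e-06). The siSRC2 level was below that of PD30, by a log2 difference of -0.41 (95% interval -0.60 to -0.22) (limma, adjusted p = 0.00109), where 62.9% of genes listed in both tables differed, or 54.3% of those listed in the same direction. PITX1 was not among the genes listed for siSRC4.

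HOXB5 was listed as lower at PD30 and higher with siSRC4 against the same control, so the direction of its siSRC4 minus PD30 difference was fixed by the listing and is given without a test. Its mean signal was 84.4 with siSRC4 and 29.5 at PD30. HOXB8 was listed as higher in both, and its siSRC4 minus PD30 difference was -0.29 (95% interval -0.63 to 0.06) and was not called (adjusted p = 0.138, limma).

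SIX5 was higher at PD30 and SIX4 was lower with GW8510. SIX5, which lies beside the gene mutated in myotonic dystrophy, had 7.31, 6.43 and 6.68 at PD30, against 4.01, 3.56 and 3.70 in the PD45 control. It was 1.81-fold higher without overlap (limma, adjusted p = 0.000282), and an antisense gene named DM1-AS overlaps it. SIX4, a homeodomain factor of muscle formation in the mouse, had 4.04, 3.64 and 4.51 with GW8510, against 6.72, 6.05 and 5.30 in the PD45 control. It was 1.48-fold lower, also without overlap (limma, adjusted p = 0.00813). Of 6 cofactors of these proteins, 3 were listed at PD30, 1 with GW8510 and 1 with siSRC4. The shares of all genes tested that were listed were 15.3%, 11.8% and 8.77%, in that order. EYA4 was higher at PD30 (11.4 ± 0.712 at PD30 and 5.68 ± 0.806 in the control). It was lower with siSRC4 (3.79 ± 0.487 with siSRC4 and 5.68 ± 0.806 in the control). EYA2 was higher at PD30 (1.13 ± 0.168 at PD30 and 0.263 ± 0.145 in the control), and DACH2, a corepressor of the network, was lower at PD30 (0.360 ± 0.1 at PD30 and 1.85 ± 0.5 in the control) and with GW8510 (0.397 ± 0.137 with GW8510 and 1.85 ± 0.5 in the control).

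Forkhead genes, which encode the FOX factors, were listed in all comparisons but siSRC2, 10 of 51 family genes, each of them in 1 table. Their shares, over all family genes whether tested or not, were 7.84% with GW8510 (11.8% of genes tested), 5.88% with siSRC4 (8.77%) and 5.88% at PD30 (15.3%). The 4 listed with GW8510, FOXC2, FOXL1, FOXN2 and FOXP1, were all lower, as were 61.2% of all listed genes. At PD30 FOXD1 and FOXO1 were lower and FOXP4 higher, and with siSRC4 FOXF1 was lower and FOXO4 and FOXQ1 higher.

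FOXL1, a marker of mesenchymal cells under the gut epithelium in the mouse, had 12.6, 9.58 and 14.5 with GW8510, against 42.5, 26.7 and 29.2 in the PD45 control. All GW8510 libraries lay far under the lowest control library, and the mean was 2.68-fold lower (limma, adjusted p = 0.000166). FOXP1, a repressor that acts in lung, heart and lymphocyte development, had 8.30, 5.43 and 7.74 with GW8510, against 18.0, 15.1 and 11.5 in the PD45 control, 2.08-fold lower (limma, adjusted p = 0.000872). FOXC2, a factor of lymphatic vessel and mesenchyme development, had 3.06, 3.33 and 3.21 with GW8510, against 6.63, 5.95 and 4.86 in the PD45 control. The groups did not overlap in either gene, and FOXC2 was 1.82-fold lower (limma, adjusted p = 0.00118). FOXN2 was low throughout, at 1.15, 0.93 and 0.93 with GW8510, against 2.01, 1.78 and 1.33 in the PD45 control, and 1.70-fold lower (limma, adjusted p = 0.0135). FOXC2 and FOXL1 are neighbours on chromosome 16, and FOXF1, listed for siSRC4, lies in the same group of genes.

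FOXF1, a factor of lung mesenchyme and of its blood vessels, had 42.8, 43.5 and 55.5 with siSRC4, against 91.3, 82.8 and 74.4 in the PD45 control. The siSRC4 libraries lay well below the control, 1.75-fold lower (limma, adjusted p = 0.000846), and FOXF1 was not among the genes listed elsewhere. FOXO4, which insulin signalling keeps out of the nucleus, had 4.74, 6.37 and 4.42 with siSRC4, against 3.82, 3.65 and 3.39 in the PD45 control. It was 1.43-fold higher without overlap (limma, adjusted p = 0.0293). FOXQ1, linked to epithelial-mesenchymal transition in tumours, had 4.63, 3.13 and 2.42 with siSRC4, against 2.57, 1.57 and 1.23 in the PD45 control, where the groups overlapped (1.90-fold; limma, adjusted p = 0.0209). FOXO1, the close relative of FOXO4, had signals near 0 and was listed as lower at PD30, with 0.01, 0.03 and 0.04 at PD30, against 0.17, 0.14 and 0.11 in the PD45 control. Among 18 genes of the insulin pathway upstream of FOXO, 3 were lower and none higher at PD30, 2 were higher and 2 lower with GW8510, and 1 was higher and 2 lower with siSRC4. The shares of all genes tested that were listed were 15.3% at PD30, 11.8% with GW8510 and 8.77% with siSRC4. IRS2, an insulin receptor substrate, was lower at PD30 (4.18 ± 0.556 at PD30 and 7.12 ± 1.63 in the control) and higher with GW8510 (12.4 ± 0.592 with GW8510 and 7.12 ± 1.63 in the control), and SGK3, a kinase related to AKT, was lower with siSRC4 (3.58 ± 0.552 with siSRC4 and 7.48 ± 0.579 in the control) and at PD30 (4.26 ± 0.255 at PD30 and 7.48 ± 0.579 in the control).

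FOXD1, known from the stroma of the developing kidney, had 37.3, 36.3 and 42.6 at PD30, against 78.4, 63.0 and 51.0 in the PD45 control. The control libraries spread widely but stayed above those of PD30, which were 1.66-fold lower (limma, adjusted p = 0.00106). Its antisense gene FOXD1-AS1 was also listed as lower at PD30 (1.53 ± 0.882 at PD30 and 9.49 ± 1.70 in the control), and the reads of the pair cannot be told apart. FOXP4, a relative of FOXP1 in lung epithelium, had 9.55, 7.84 and 10.4 at PD30, against 6.75, 6.14 and 5.14 in the PD45 control, 1.54-fold higher without overlap (limma, adjusted p = 0.00386). The oxidoreductase gene FOXRED1 had 12.8, 12.7 and 12.7 at PD30, against 6.56, 6.58 and 7.68 in the PD45 control, 1.83-fold higher, and FOXRED2 had 4.47, 4.15 and 5.98 with GW8510, against 4.21, 3.48 and 2.73 in the PD45 control, with groups that overlapped. The call for FOXRED2 was borderline (limma, adjusted p = 0.0466) and was lost with the replicate number as a block (adjusted p = 0.0620, limma).

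**Figure D4:**
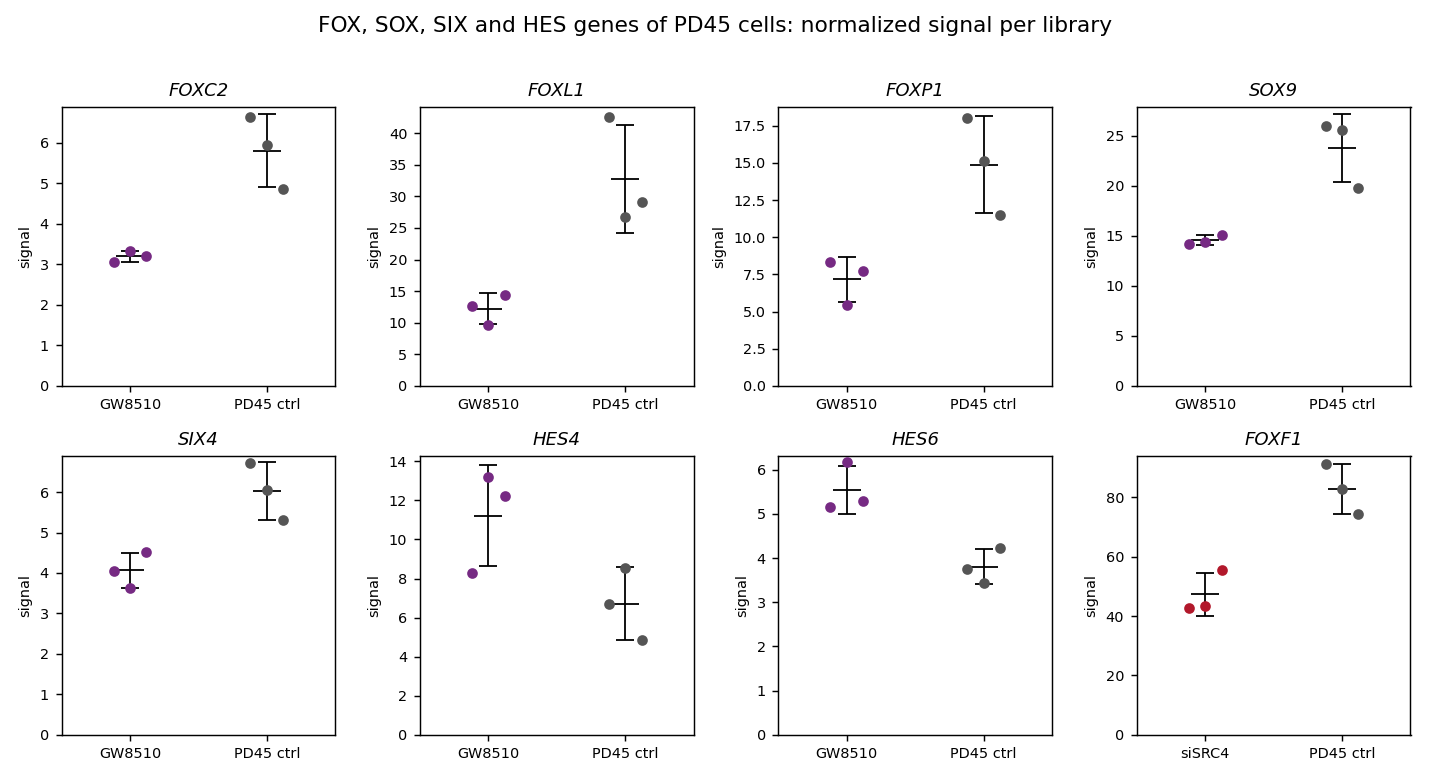
Deposited signal (vertical axis, from 0) of 7 members listed with GW8510 and of FOXF1, listed with siSRC4, with 1 point per library, the mean as a horizontal line and the SD as whiskers. FOXC2, FOXL1, FOXP1, SOX9 and SIX4 lie lower with GW8510 and HES4 and HES6 higher, and FOXF1 lies lower with siSRC4.

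HES genes were listed mainly with GW8510, 4 of the 7 family genes (57.1%, against 11.8% of genes tested by the authors): HES2, HES4 and HES6 were higher and HES7 lower. HES4 had 8.28, 13.2 and 12.2 with GW8510, against 6.72, 8.56 and 4.85 in the PD45 control. The lowest GW8510 library lay just under the highest control library, and the mean was 1.67-fold higher (limma, adjusted p = 0.00998). HES6, which is known to counter HES1 in nerve cell formation, had 5.16, 6.17 and 5.29 with GW8510, against 3.76, 3.43 and 4.23 in the PD45 control, 1.46-fold higher without overlap (limma, adjusted p = 0.00960). HES2 was faint, with 0.63, 0.88 and 0.45 with GW8510, 0.21, 0.01 and 0 at PD30 and 0.29, 0.25 and 0.31 in the PD45 control. It thus lay above the control with GW8510 and below it at PD30, at a level under the minimum of the re-test. The authors' deposited table gives a log2 fold change of -3.15 for PD30, where the log2 ratio of mean signals is -1.95. HES7, the oscillator of the somite clock, was as faint, at 0.1, 0.19 and 0.24 with GW8510, against 0.71, 0.82 and 0.21 in the PD45 control, and 1 control library lay within the GW8510 range. No HEY gene was listed.

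The Notch pathway, whose receptors switch on several HES genes, was read from a list of 33 genes without HES and HEY. Among all genes tested, 11.8% were listed with GW8510, 15.3% at PD30 and 8.77% with siSRC4. With GW8510, 2 of the 33 were higher and 6 lower. RBPJ, the DNA-binding partner of the cleaved receptor, had 32.2 ± 2.81 with GW8510 and 57.8 ± 1.92 in the control, and ADAM10, a protease that cleaves the receptor, 83.02 ± 2.46 with GW8510 and 136 ± 0.692 in the control. NUMB, an inhibitor of Notch, was lower as well (62.0 ± 2.26 with GW8510 and 102 ± 14.9 in the control), while APH1B, a subunit of gamma-secretase, was higher (10.6 ± 1.77 with GW8510 and 6.55 ± 0.0346 in the control). At PD30, 1 was higher and 7 lower, with NOTCH2 at 22.8 ± 2.91 at PD30 and 39.8 ± 5.46 in the control and the ligand DLL4 at 3.86 ± 0.641 at PD30 and 13.0 ± 2.56 in the control. NOTCH3 and JAG1, a receptor and a ligand, were 1.59-fold and 1.58-fold lower. With siSRC4, NCSTN, a gamma-secretase subunit, and the ligand gene JAG2 were higher and DTX4 lower, and no gene of the list was listed with siSRC2. The median log2 ratio of the listed Notch genes was -0.71 with GW8510, where all listed genes had -0.72, and -0.73 at PD30, where all listed genes had 0.59.

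Further members were listed at PD30 only among the tables. TBX5, a T-box factor that with TBX4 shapes the mesenchyme of limb and lung, had 11.95, 11.2 and 12.4 at PD30, against 8.03, 7.52 and 6.66 in the PD45 control. The groups were apart, 1.60-fold higher at PD30 (limma, adjusted p = 0.000470). IRX2, an Iroquois homeodomain factor, had 1.44, 1.88 and 1.35 at PD30, against 0.21, 0.13 and 0.21 in the PD45 control. At 8.49-fold it was the largest ratio among the members, from a control level near 0, and its mean over both groups was below the minimum of the re-test (adjusted p = 2.40e-05 by limma with no minimum). PAX8, a factor of thyroid and kidney, had 1.5, 2.32 and 1.05 at PD30, against 1.04, 0.96 and 0.79 in the PD45 control. The lowest PD30 library lay just above the highest control library (limma, adjusted p = 0.0395), and its antisense gene PAX8-AS1 was listed as higher (14.6 ± 0.777 at PD30 and 5.22 ± 0.684 in the control). The reads of PAX8 and PAX8-AS1 cannot be told apart. GATA3, a factor of T cells and of several epithelia, was faint and lower at PD30, with 0.18, 0.08 and 0.14 at PD30, against 0.78, 0.36 and 0.38 in the PD45 control. The authors' deposited table gives GATA3 a log2 fold change of -2.65, against -1.93 from the mean signals.

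**Figure D5:**
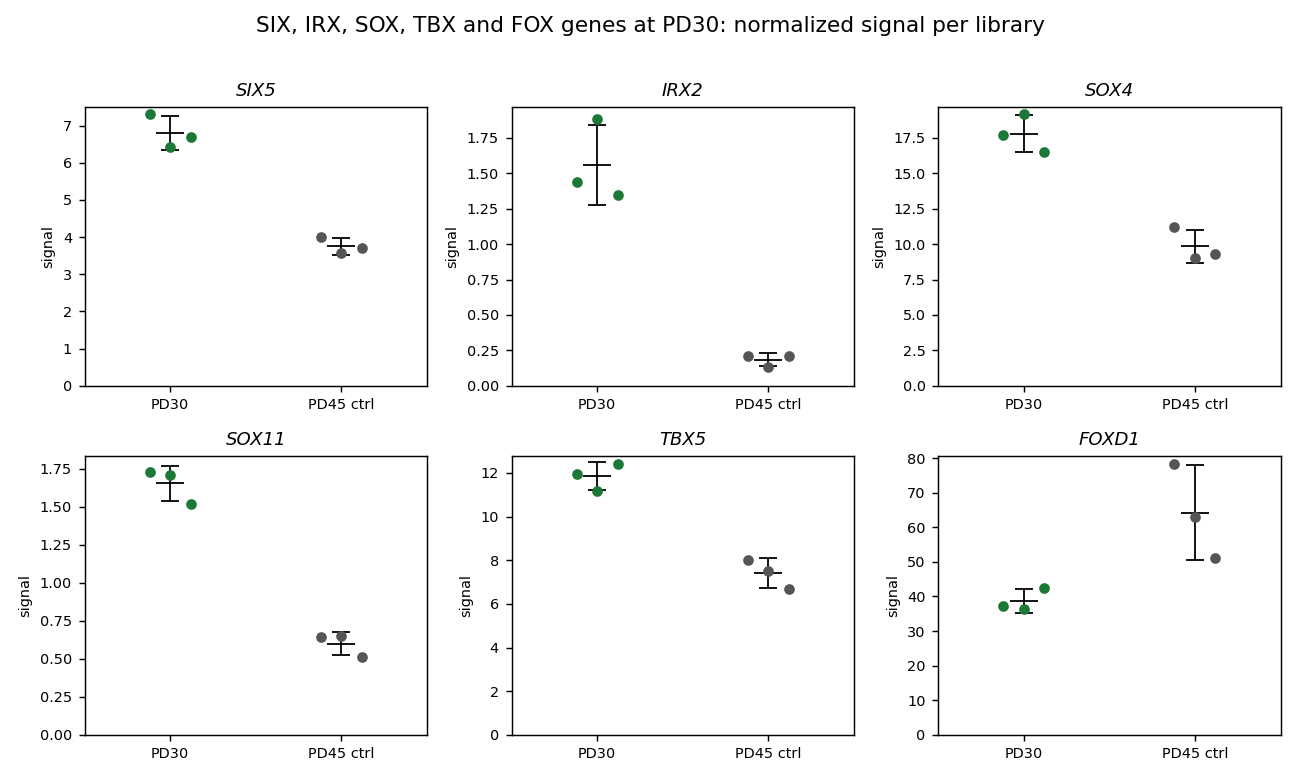
Deposited signal (vertical axis, from 0) of 6 members listed at PD30, with 1 point per library, the mean as a horizontal line and the SD as whiskers, beside the PD45 control. SIX5, IRX2, SOX4, SOX11 and TBX5 lie higher at PD30 and FOXD1 lower, and in none of the 6 do the groups overlap.

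Of 53 other developmental transcription factors in a list of homeobox, TWIST, SNAI, GLI and related genes, 9 were listed at PD30, 5 higher and 4 lower. Among all genes tested, 15.3% were listed at PD30, and 53.8% of those listed were higher. The share of genes tested that were listed was 11.8% with GW8510 and 8.77% with siSRC4. TCF21, a factor of lung and heart mesenchyme, was higher at PD30 (181 ± 9.33 at PD30 and 91.1 ± 5.19 in the control) and with GW8510 (169 ± 18.4 with GW8510 and 91.1 ± 5.19 in the control). TWIST2 and SNAI2, regulators of mesenchymal state, were 2.07-fold and 1.65-fold higher at PD30, and MSX2, a homeodomain factor of bone and limb, 3.77-fold. With GW8510, 3 were higher and 3 lower, and with siSRC4 TWIST1 (10.9 ± 1.01 with siSRC4 and 16.9 ± 2.97 in the control) and OSR2 (6.13 ± 2.46 with siSRC4 and 11.03 ± 1.30 in the control) were lower. OSR2 was also lower with GW8510 (6.14 ± 0.985 with GW8510 and 11.03 ± 1.30 in the control). No gene of the list was listed with siSRC2.

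With 3 libraries a group, the smallest two-sided exact permutation p for 1 gene is 0.1. Some calls of the limma re-test ended when 1 library was left out, with the adjusted p given in brackets. At PD30 this was PAX8, without PD30 replicate 1 (0.0676) or 2 (0.156) or PD45 control replicate 1 (0.0539), 2 (0.0710) or 3 (0.113). With GW8510 it was SOX13, without GW8510 replicate 1 (0.103) or 3 (0.145) or control replicate 2 (0.121) or 3 (0.108). FOXRED2 was lost without GW8510 replicate 1 (0.0600) or 3 (0.184) or control replicate 2 (0.0856) or 3 (0.157), SOX5 also without control replicate 1 (0.0619) or 3 (0.0877), and FOXN2 without control replicate 1 (0.0533). With siSRC4 it was FOXO4, without siSRC4 replicate 2 (0.134) or control replicate 1 (0.0509), 2 (0.0698) or 3 (0.0781), and FOXQ1, without siSRC4 replicate 1 (0.0623) or control replicate 2 (0.0613) or 3 (0.0853). HOXB8 was lost without siSRC4 replicate 1 (0.0647) or control replicate 2 (0.0695) or 3 (0.0744), and SOX6 without siSRC4 replicate 2 (0.0618) or control replicate 1 (0.0659).

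With GW8510 and with siSRC4, transcripts of genes listed as higher were richer in GC than those of genes listed as lower. With GW8510 the members listed as higher had transcripts of 58.5% GC at the median and those listed as lower of 46.5%, and all listed genes 55.1% and 41.6%. With siSRC4 the medians were 58.0% and 46.5% for members, the second from 2 genes only, and 55.4% and 41.0% for all listed genes. At PD30 they lay closer, at 57.5% and 55.1% for members and 49.5% and 47.9% for all listed genes. With siSRC2 the order was reversed, at 47.5% for all genes listed as higher and 51.3% for those listed as lower. The part of GC content in these results was not tested. For the cell type markers below, the share of all genes tested that were listed was 15.3% at PD30 and 11.8% with GW8510. It was 8.77% with siSRC4 and 2.64% with siSRC2. Of 11 fibroblast markers, 4 were listed at PD30, and VIM (5407 ± 219 at PD30 and 3225 ± 104 in the control), COL3A1 and PDGFRA were higher while S100A4 was lower (94.2 ± 10.8 at PD30 and 448 ± 27.3 in the control). Their sum, mostly VIM, was 5674 to 6071 at PD30 and 3724 to 3923 in the control. COL3A1 was also higher with GW8510 (202 ± 29.7 with GW8510 and 115 ± 6.82 in the control) and with siSRC2 (225 ± 25.3 with siSRC2 and 115 ± 6.82 in the control), and FAP was lower with GW8510 (24.2 ± 1.26 with GW8510 and 48.0 ± 2.53 in the control). Of 10 epithelial markers, KRT8, KRT18 and KRT19 were listed at PD30 and summed, mostly as KRT19, to 50.8 to 56.5 there and 162 to 188 in the control. KRT19 stood at 204 to 251 with GW8510 and 123 to 148 in the control. KRT19 and CLDN4 summed, mostly as KRT19, to 75.1 to 78.8 with siSRC2 and 128 to 153 in the control. Of 6 endothelial markers, TEK stood at 11.6 to 14.1 with siSRC2, 28.8 to 31.4 at PD30 and 6.22 to 8.53 in the control. Of 6 smooth muscle markers, ACTA2, CNN1 and RGS5 summed, mostly as ACTA2, to 218 to 271 at PD30 and 421 to 468 in the control. RGS5 was lower with GW8510 (3.32 ± 0.630 with GW8510 and 9.80 ± 1.93 in the control) and, with overlap, with siSRC4 (6.44 ± 2.21 with siSRC4 and 9.80 ± 1.93 in the control). Of 5 neural markers, MAP2 and TUBB3 summed to 425 to 513 with GW8510 and 240.3 to 266 in the control, nearly all of it TUBB3. MAP2 was 2.67 ± 0.841 with GW8510 and 1.09 ± 0.330 in the control. With siSRC4 MAP2 was 0.51 to 0.89 and in the control 0.88 to 1.47, and NEFL was listed at 0 at PD30. Of 6 blood markers, CD68 was 25.3 to 31 with GW8510 and 44.3 to 54.7 in the control, and the part of these markers in the results was not tested.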

How the data were processed

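RNA-seq of 15 libraries, 3 in each of 5 groups, was read from 4 tables of called genes. Per the submitters' processing notes, CASAVA, HISAT2, StringTie, RSEM, DESeq2 and edgeR were used, without versions or roles. The notes name the mouse build GRCm38 while the gene IDs are human, so no coordinates from the files are given. Per the file headers, the authors deposited a normalized expression signal for each library, a fold ratio, its log2 value, and p-values with their adjusted form. Libraries were assigned by column name, which for the tables of siSRC2 and siSRC4 differs from the name of the table. The PD45 control values were identical wherever a gene stood in more than 1 table.

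Computed here were group means, SDs and ratios, and limma 3.58.1 (R 4.3.3) fits with a mean-variance trend on log2(signal + 1), over listed genes averaging 1 or more in signal, with Benjamini-Hochberg adjustment and a threshold of 0.05. The fit was tested on simulated data in which many genes were left unchanged. Nearly all listed genes had been called, so that test does not show how the fit behaves on them. Direct differences used genes listed in both tables. Alternatives were a pseudocount of 0.1, no minimum or a minimum of 0.5, rescaling to the authors' median log2 fold change, no trend, the replicate number as a block, and each library left out. The rescaling was not run for the direct differences. Same-numbered siSRC4 and control libraries deviated together weakly (r from 0.107 to 0.136), as did those of siSRC2 and the control (0.088 to 0.218). Nothing states that the numbers pair libraries, and whether they do is unknown. Unless stated otherwise, p-values are from the fit without the block, which would ignore such a pairing. With the replicate number as a block (paired fit), 9 of 9 siSRC4 members passed, as they did without it.

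Members listed in more than 1 table, and members with a group mean of at least 1, at most 25 to a table, were named by rule, with at most 4 genes to a pathway list and table. Results for some members and list genes are not reported here. Fainter members were named after their values were seen. Members and lists were chosen with earlier results of these data known. Promoters are from RefSeq, GRCh38.p14, and gene overlaps and transcript GC content from GENCODE 29. Depth is unknown, so no counting interval is given.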

Additional observations from a re-analysis of the deposited data

Results flagged for a closer look

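In 5 cases a gene listed in the same direction in 2 tables differed directly between the 2 groups, by limma on log2(signal + 1) with Benjamini-Hochberg adjustment. Such differences were common among all genes listed in the same direction in both tables. They were found for 52% for GW8510 minus PD30, 34.5% for siSRC4 minus PD30 and 54.3% for siSRC2 minus PD30. Both siSRC4 minus PD30 differences below could be lost by leaving out 1 library. For SOX12 the difference was -0.43 for GW8510 minus PD30 and -0.38 for siSRC4 minus PD30. For SOX13 it was -0.60 for GW8510 minus PD30 and -0.45 for siSRC4 minus PD30. PITX1 gave -0.41 for siSRC2 minus PD30. By their means the 3 genes lay above the PD45 control in every group named.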

How the results depend on the processing

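The number of members passing the limma re-test ranged from 20 to 26 at PD30, where 21 passed, from 9 to 14 with GW8510, where 13 passed, and from 6 to 9 with siSRC4, where 9 passed. PITX1 passed under every alternative run for siSRC2. Leaving out 1 library at a time gave 20 to 21 at PD30, 9 to 13 with GW8510 and 6 to 9 with siSRC4. Leaving out FOXRED genes and MEIS3 pseudogenes, chosen after seeing the data, gave 19 at PD30 and 12 with GW8510. With the replicate block, 21 passed at PD30, 12 with GW8510 (FOXRED2 was lost) and 1 with siSRC2; same-numbered libraries correlated at -0.112 to 0.010 at PD30, 0.024 to 0.107 with GW8510 and 0.088 to 0.218 with siSRC2, where each siSRC2 library correlated best with its own number. FOXRED2 was also lost with no minimum on the signal (adjusted p = 0.0529, limma).

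Direct differences numbered 2 for GW8510 minus PD30 (3 with no minimum, which lets HES2 in), 1 for siSRC2 minus PD30, 3 for siSRC4 minus PD30 (2 to 3 with 1 library left out) and 0 for siSRC4 minus GW8510. Of these, HOXB5 for siSRC4 minus PD30 and HES2 had their direction fixed by the listing. Over single called genes and differences, 557 values kept direction and call and 37 lost the call. Uncalled differences gave 31 values on the same side and 2 that changed sign: with 1 library left out, the SOX12 difference for siSRC4 minus GW8510 ranged from -0.024 to 0.143. The 56 values of members below the minimum, which have no call, kept their direction and moved by less than 1 SD. With 3 libraries a group and tables of called genes only, small changes cannot be seen.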
